A study of Mus musculus with 4 samples.

Results

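Dtl (also called Cdt2) is the substrate receptor of a ubiquitin ligase built on the scaffold proteins Cul4a and Cul4b and the adaptor Ddb1. It was examined here together with those subunits, with 2 of its substrates, Cdt1 and Cdkn1a, and with Pcna, on which substrates are recognised. The members were all probe sets that the array annotation assigns to 1 of these 7 symbols alone. They numbered 16 of the 45037 probe sets that are not controls, for 7 of the 18193 genes named alone by a probe set: 6 of Dtl, 1 of Cul4a, 2 of Cul4b, 1 of Ddb1, 3 of Cdt1, 2 of Cdkn1a and 1 of Pcna. The group was chosen by the MAS5 signals themselves, namely the high signal of Dtl on knockout arrays within each array number, so all values of that contrast in the members are given below as a description, without a test.

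The samples were 4 Affymetrix mouse 430 2.0 arrays of naive T cells sorted as CD4+ CD62L+ CD44- from mice aged 10 to 11 weeks. The 2 wild-type arrays came from fur flox/flox mice, which carry the floxed furin gene without Cre. The 2 knockout arrays came from littermates of the genotype CD4-cre fur flox/flox. All mice thus carried the floxed allele, and Cre expression from the CD4 promoter begins in developing T cells, so CD8 T cells share the deletion. Nothing in the labels ties an array to an animal of its own, so SEs and p-values cover only the spread between these samples, possibly a technical one, and the number of arrays limits their precision.

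In the S phase of the cell cycle, PCNA forms a ring around DNA and draws in proteins that carry a PCNA-binding degron. Dtl recognises them there, and the ligase marks them for destruction. Removal of Cdt1, which loads the replicative helicase at origins, prevents origins from firing again, and removal of Cdkn1a (p21), an inhibitor of cyclin-dependent kinases, lets replication proceed. The same ligase acts after DNA damage. Naive T cells rest outside the cell cycle, and Dtl is known as a gene whose transcript is induced with replication by E2F factors. Transcript levels do not measure the amount of protein or the activity of the ligase.

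The start of Dtl is shown because the gene lies head to head with Ints7, which encodes a subunit of the Integrator complex, so levels of both genes bear on the same stretch of DNA. In the RefSeq annotation of build GRCm38.p6 Dtl spans chr1:191537356-191575544 on the minus strand, and its extent overlaps that of Ints7 by 5 bases. All 7 members had a RefSeq promoter window. The annotation has more than 1 start for Ints7. The stretch between the start of Dtl and the Ints7 start of the RefSeq promoter window, at 191575636, is chr1:191575545-191575635, which lies within the extent of Ints7. It is printed on the strand of Dtl, with capitals marking a CCAAT box, a cyclic AMP response element and an E2F motif in this order.

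Dtl to Ints7: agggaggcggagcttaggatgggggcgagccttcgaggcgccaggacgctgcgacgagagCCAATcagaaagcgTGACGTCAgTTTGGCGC

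The motifs were searched on both strands in the 250 bases before each start, and none of the matches printed overlaps another. For E2F the letters were TTTCCCGC, TTTCGCGC, TTTGGCGC or TTTGCCGC, which occurred in 1.86% of 32851 windows. The response element TGACGTCA occurred in 1.55% and CCAAT in 33.8%. An AP-1 motif, TGAGTCA or its reverse complement TGACTCA, was found in 4.46% of windows and was not found in that of Dtl. Among the other members Cul4b and Pcna had a CCAAT match, printed below with its reverse complement in capitals, and none had a match to the E2F, response element or AP-1 letters. These are matches of letters, not measured binding sites.

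Cul4b, chrX:38576312-38576338, minus strand: gcttcgttttgATTGGctaagacatca
Pcna, chr2:132253252-132253278, minus strand: ccacgggtacgATTGGtccttgaggag

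Array number separated the 4 arrays more than genotype did. Gapdh control probe sets at the 3' and 5' ends, a measure of RNA and cDNA length, stood in a ratio of 4.09 (wild type) and 3.35 (knockout) for number 1, against 0.905 and 0.934 for number 2. From number 1 to number 2, controls of bacterial origin added to the sample gained 6.04-fold in wild type and 5.87-fold in knockout. Each comparison is therefore also given within arrays numbered 1 and within arrays numbered 2. The targeted gene, Furin, differed by 0.11 on the log2 scale (SE 0.34), with -0.15 and 0.36 within the numbers. Whether this probe set lies inside the deleted stretch is not given in the labels, so it checks neither the deletion nor the groups. Of 10 fixed markers of naive CD4 T cells 7 were analysed here, Cd4 and Cd3e among them, and every one lay above the filter on low values. Their summed signal was 60123 and 121438 on the wild-type arrays and 55647 and 116314 on the knockout arrays. Of the 7, 0 were higher in knockout within both numbers and 3 were lower, against 27.7% and 27.2% of all genes. The 3 were Ccr7 at -0.29 (SE 0.51), Il7r at -0.27 (SE 0.32, groups without overlap) and Lef1 at -0.10 (SE 0.50). The other 4 were mixed in sign, and limma called 0 of the 7 without or with the block.

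Both knockout arrays read above both wild-type arrays in 4 of the 6 Dtl probe sets, of which 2 lay above the filter on low values. The other 4 probe sets lay below that filter. The brightest, 1430228_at, had MAS5 signals of 57.4 and 22.6 on wild-type arrays 1 and 2 and of 476.3 and 296.5 on knockout arrays 1 and 2. Below, signals of a group are given in the order of array 1 and array 2. Both knockout arrays lay far above both wild-type arrays, whose values were low for this table: 15.3 is the 25% quantile of all its signals. On the log2(signal + 15.3) scale used throughout, which understates changes of dim probe sets, the knockout minus wild-type difference was 2.90 (SE 0.49, n = 2 arrays per group). It was 2.76 within arrays numbered 1 and 3.04 within those numbered 2, or 6.76-fold and 8.23-fold.

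The probe set 1456652_at showed the same direction with less even values. Its signals were 12.4 and 39.6 on the wild-type arrays and 262.4 and 142 on the knockout arrays. Again the groups did not overlap, and here the wild-type array numbered 1 was the lowest, whereas for 1430228_at it was the one numbered 2. The difference was 2.42 (SE 0.52), with 3.33 and 1.52 within the numbers.

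**Figure D1:**
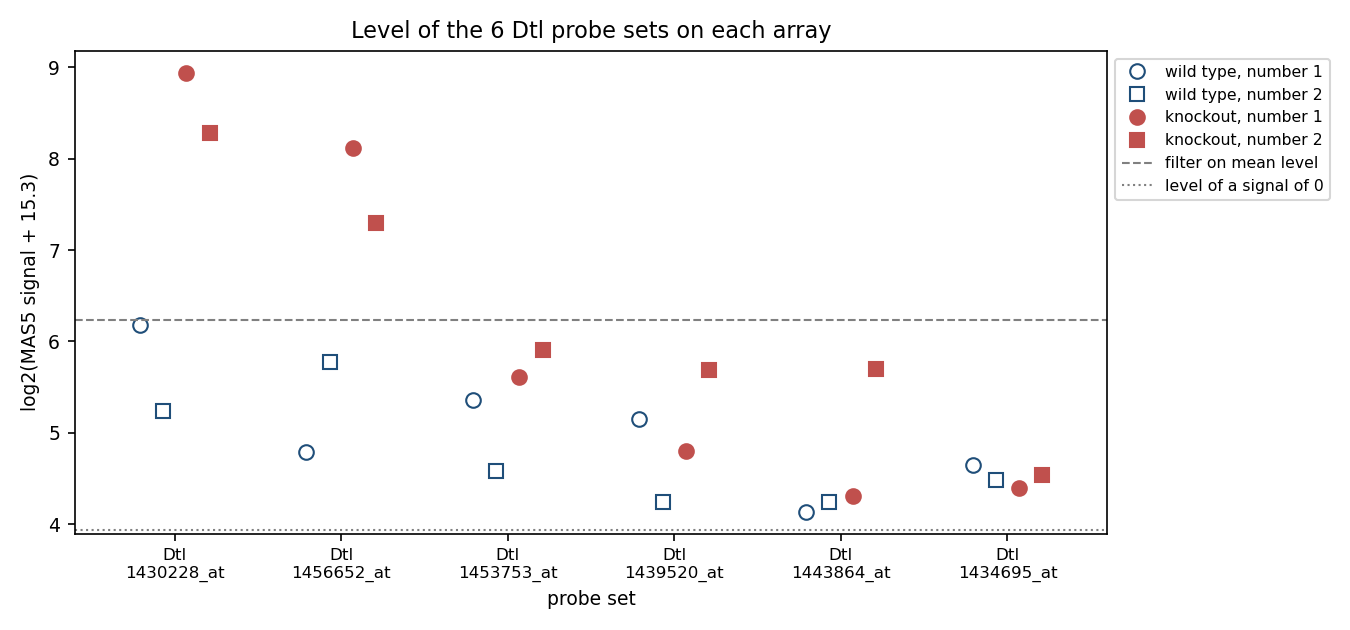
Level of each of the 6 Dtl probe sets on the 4 arrays, as log2(MAS5 signal + 15.3); open symbols are wild type, filled symbols knockout, circles arrays numbered 1 and squares arrays numbered 2. In 1430228_at and 1456652_at both knockout arrays lie above both wild-type arrays and above the filter level of 6.24 (dashed), while the other 4 probe sets lie below that level on all arrays.

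The other 4 Dtl probe sets had a mean level below the filter of 6.24, a signal of 60.0, and their signals ran from 2.3 to 44.9. In 10 of these 16 values the signal was under 15.3, where the scale has little resolution. Probe set 1453753_at read 25.7 and 8.6 in wild type and 33.5 and 44.9 in knockout, a difference of 0.79 (SE 0.43) with 0.25 and 1.33 within the numbers. For 1443864_at the signals were 2.3 and 3.7 against 4.5 and 36.5, and only knockout array 2 stood out. For 1439520_at they were 20.2 and 3.6 against 12.5 and 36.3, and the groups overlapped. The last, 1434695_at, was under 15.3 on every array, at 9.7 and 7.1 against 5.8 and 7.9, with a difference of -0.10 (SE 0.35). Of these 4 the groups of 1453753_at and 1443864_at did not overlap, those of 1443864_at by less than 1 unit of signal. Across the 6 probe sets the difference thus ran from -0.10 to 2.90, and the mean over all 6 was 1.23.

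Where in the transcript each of these probe sets lies was not analysed here, and the table has no detection calls, so a low value is not a statement that the transcript is absent. Both kept Dtl probe sets were at least 2-fold higher in every comparison of a knockout with a wild-type array. Among the 22518 kept probe sets 0.164% met this. In 4 of the 6 Dtl probe sets the knockout arrays lay above the wild-type arrays without overlap, against 10.9% of all 45037. These shares describe the gene and are no evidence for it, because this contrast chose it. Both passed the filter through their knockout arrays alone, since their wild-type levels, 4.79 to 6.18, lay below 6.24. As background over all kept probe sets, members included, limma called 0 of 22518 (0%) without a block at an adjusted p of 0.05. In that fit 145 had an unadjusted p under 0.05. It called 6 (0.0266%) with the array number as a block. Adding a trended prior to that block gave 260 calls (1.15%). The calls with the block include 1430228_at, and those with the trended prior include both kept Dtl probe sets. For Dtl these calls are no test, because the same contrast chose it.

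The ligase subunits showed no such difference. Cul4a, a scaffold that holds the catalytic RING protein, read 1091.7 and 405.4 in wild type and 1000.4 and 480.6 in knockout. Knockout and wild type were close within each number, at -0.12 and 0.24, and the difference was 0.06 (SE 0.64, or 0.20 with the array number as a block). Cul4b, the paralogue of Cul4a, is measured by a pair of probe sets. The brighter, 1417454_at, had 4122.9 and 1335.4 against 2859.8 and 1443.5, a difference of -0.21 (SE 0.69, 0.23 with the block) that was -0.53 within arrays numbered 1 and 0.11 within those numbered 2. The other, 1417453_at, had 595.9 and 744.8 against 590.9 and 713.3, a difference of -0.04 (SE 0.34, 0.19 with the block). Ddb1, the adaptor that joins Dtl to the scaffold, had 2169.6 and 1243 against 1844.6 and 1328, a difference of -0.07 (SE 0.43, 0.20 with the block). In all 4 subunit probe sets the groups overlapped, and the differences ran from -0.21 to 0.06.

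Substrates and the docking platform were as close. Cdt1 was bright in 1424143_a_at, with signals of 3701.6 and 4786.9 on the wild-type arrays and 4680 and 5093.4 on the knockout arrays. Its difference was 0.21 (SE 0.34, 0.19 with the block), with 0.34 and 0.09 within the numbers, and knockout array 1 lay just below wild-type array 2. Its second probe set, 1424144_at, gave 0.07 (SE 0.34), and the last, 1455791_at, was under 8 on all arrays. Pcna, the sliding clamp, lay closest to 0 among the members, at 10975.8 and 13741.9 against 11180.1 and 13041.3, with a difference of -0.02 (SE 0.34, 0.19 with the block).

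Cdkn1a was dim. Its probe set 1424638_at read 59.2 and 125 in wild type and 86.1 and 74.7 in knockout, so that both knockout arrays lay between the wild-type arrays. The difference was -0.10 (SE 0.44), made of 0.44 within arrays numbered 1 and -0.64 within those numbered 2. The other Cdkn1a probe set, 1421679_a_at, was under 9 on every array.

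**Figure D2:**
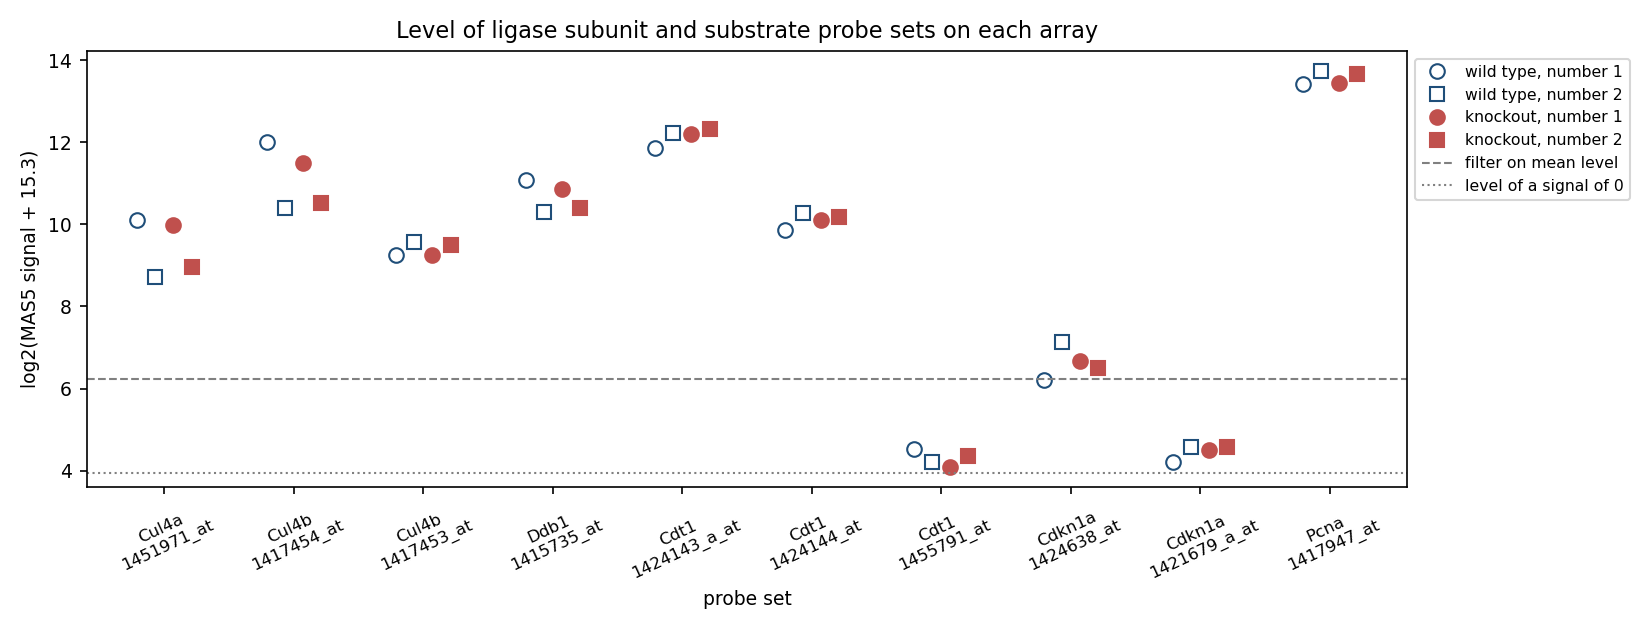
Level of the 10 probe sets of Cul4a, Cul4b, Ddb1, Cdt1, Cdkn1a and Pcna on the 4 arrays, as log2(MAS5 signal + 15.3), with symbols for genotype and array number and lines for the filter (dashed) and a signal of 0 (dotted). In every probe set the knockout and wild-type arrays overlap, and Cul4a and 1417454_at of Cul4b are lower on both arrays numbered 2.

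Over the 10 partner and substrate probe sets the knockout minus wild-type differences ran from -0.21 to 0.21, with a median of -0.03, and the groups overlapped in all 10. Without overlap in either direction were 21.8% of all 45037 probe sets. Of these, 8 were kept, 6 on both sides of 0 within the numbers and 2 with the same sign in both; 55.4% of all kept probe sets had the same sign in both. With the block, the SEs of the 8 ran from 0.19 to 0.30. The arrays therefore do not exclude small changes of these transcripts, and the 1430228_at and 1456652_at differences of Dtl were larger than every one of the partners' values within either number, of which the largest in size was the 0.64 of Cdkn1a.

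**Figure D3:**
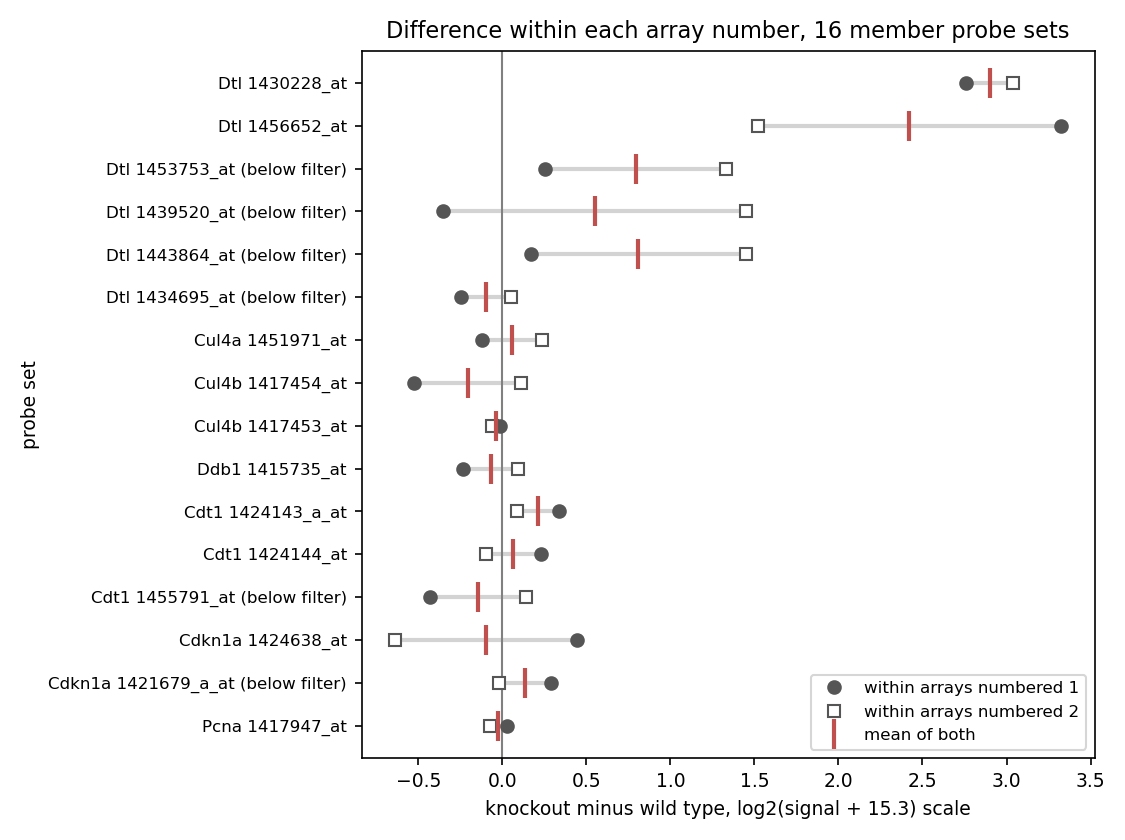
Knockout minus wild-type difference of the 16 member probe sets on the log2(signal + 15.3) scale, within arrays numbered 1 (filled circles), within arrays numbered 2 (open squares) and their mean (red ticks). The kept Dtl probe sets lie at 2.90 and 2.42, and the 10 partner and substrate probe sets have means between -0.21 and 0.21.

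**Figure D4:**
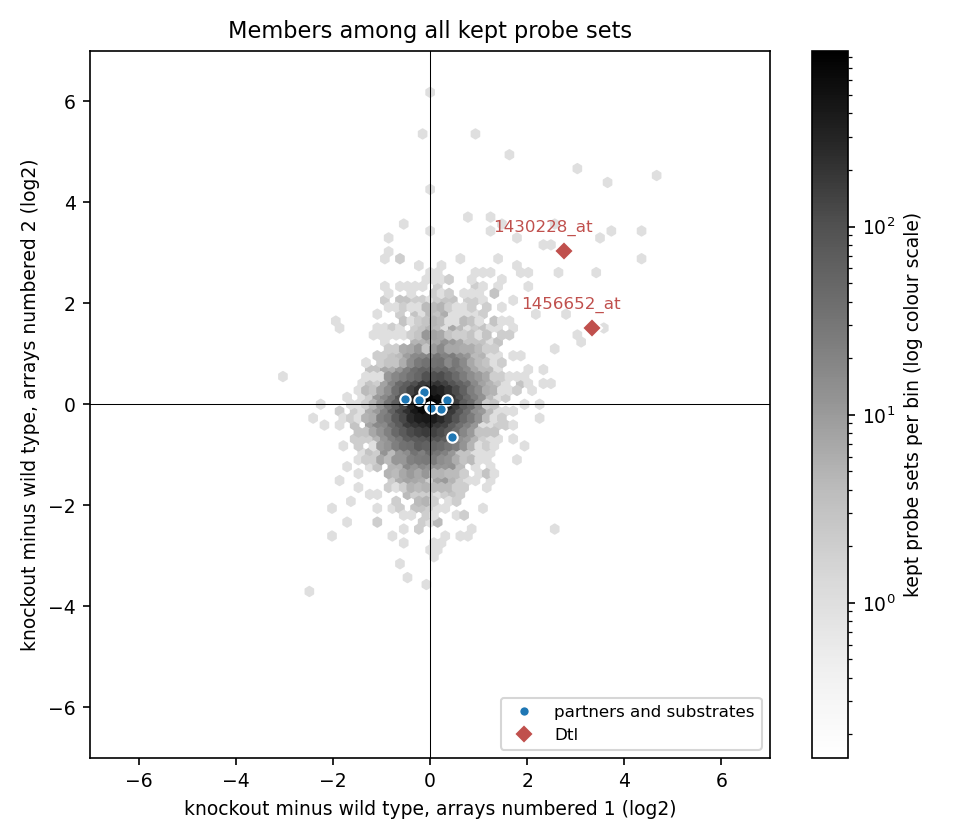
Knockout minus wild-type difference within arrays numbered 1 (x axis) against that within arrays numbered 2 (y axis), both log2, for all 22518 kept probe sets as shaded bins, with the 2 kept Dtl probe sets as red diamonds and the 8 kept partner and substrate probe sets as blue points. Both Dtl probe sets lie in the upper right, outside the main cloud, and the blue points lie within it.

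The array number contrast itself played no part in choosing the members. For Dtl its test is still not independent of that choice. The SE rests in part on how closely the differences within the numbers match, and those differences chose Dtl. Both kept Dtl probe sets also passed the filter through their knockout arrays alone. Their SEs and p-values here, and the place of Dtl in the count below, are therefore a description. In limma with genotype in the fit, 34.6% of kept probe sets differed between the numbers at an adjusted p of 0.05, a count of 7791 that was 0 when no filter on low values was used. Of the 10 kept member probe sets 3 did so, a share near that of all kept probe sets. All 3 were lower on the arrays numbered 2, as were 15.1% of all kept probe sets. Cul4a fell by 1.22 (SE 0.20, adjusted p = 0.0112), with -1.40 in wild type and -1.03 in knockout. Cul4b 1417454_at fell by 1.30 (SE 0.23, adjusted p = 0.0131), while its other probe set differed by 0.29 (SE 0.19, adjusted p = 0.267), so the probe sets of this gene gave different accounts of the same arrays. Dtl 1430228_at fell by 0.80 (SE 0.20, adjusted p = 0.0303), with -0.94 in wild type and -0.66 in knockout. The other kept Dtl probe set, 1456652_at, did not show this fall. It differed by 0.08 (SE 0.43, adjusted p = 0.893), with 0.99 in wild type and -0.82 in knockout. Ddb1 differed by -0.63 (adjusted p = 0.058), and Pcna by 0.27 (adjusted p = 0.295). For Cul4a and Cul4b 1417454_at the difference between the numbers was larger than that between the genotypes, and for both kept Dtl probe sets it was smaller.

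Ints7, across the shared start region from Dtl, was chosen for a look after the values of Dtl were known. Its brightest probe set, 1428531_at, read 3003.3 and 1646 in wild type and 2505.1 and 1673.2 in knockout, a difference of -0.12 (SE 0.46; limma adjusted p = 0.909 with the block). Its other kept probe sets, 1452822_at and 1428532_at, differed by 0.53 (SE 0.32) and 0.56 (SE 0.47), with adjusted p = 0.574 and 0.566 with the block. The groups of 1452822_at did not overlap, with 181.9 and 176.7 against 274 and 255.7. None of the 3 passed limma with or without the block.

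The rest of the pathway was read from 9 lists of ligase, replication and cell cycle genes. They held 188 genes, of which 158 were measured above the filter, each by its brightest kept probe set. In limma 0 of the 158 were called without the block, where 0 had an unadjusted p under 0.05, and 0 were called with it, where 6 had an unadjusted p under 0.05. Higher within both array numbers were 49 genes, or 31.0%, and lower in both were 42, or 26.6%; among all 10211 genes these shares were 27.7% and 27.2%. With the block, 0.049% of all genes were called, Dtl among them. The median difference of the 158 was 0.03 and that of all genes was -0.0017. The kept probe sets of a gene did not always agree. Those of Rbbp4 ran from -0.78 to 0.19, of Dcaf5 from -0.64 to 0.28 and of Cops2 from -0.05 to 0.30. Those of Btg2 ran from -0.09 to 0.47 and of Btg1, a gene of the quiescence list, from -0.07 to 2.54.

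Among the remaining core and neddylation genes of CRL4 ligases, 27 measured genes had a median of -0.0005, with 8 higher and 7 lower in both numbers and 0 called. Rbx1, the RING subunit that binds the ubiquitin-conjugating enzyme, read 703.7 and 384.5 in wild type and 466.1 and 276.8 in knockout, a difference of -0.52 (SE 0.48, limma adjusted p = 0.575 with the block). The groups overlapped through the wild-type array numbered 2. Glmn, which is known to bind Rbx1 and to restrain its activity, differed by 0.42 (SE 0.41), almost all of it within arrays numbered 1. Cops2, a subunit of the COP9 signalosome that removes Nedd8 from cullins, differed by 0.30 (SE 0.34), and Ube2f, a Nedd8-conjugating enzyme, by 0.27 (SE 0.41).

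Other substrate receptors that compete for the same adaptor had 27 measured genes and a median of -0.08, with 6 higher and 10 lower in both numbers and 0 called. Their differences ran from -0.35 for Dcaf5 to 0.17 for Rbbp4, a histone-binding protein. Ddb2, the receptor for ultraviolet damage, had signals of 2772.8 and 2757.9 against 3245.3 and 2665.6, a difference of 0.09 (SE 0.33). Dcaf4 and Dcaf12 were at -0.35 (SE 0.35) and -0.23 (SE 0.45).

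Further known substrates of the Dtl ligase differed by -0.09 to 0.17, with 5 measured, 2 higher and 0 lower in both numbers and 0 called. Kmt5a, the enzyme that monomethylates histone H4, had 918.3 and 823.4 against 817.1 and 1032.6, a difference of 0.08 (SE 0.34). Pold4, the smallest subunit of DNA polymerase delta, differed by -0.04 (SE 0.70), Ercc5, an endonuclease of nucleotide excision repair, by 0.17 (SE 0.41), and Sde2, a PCNA-bound regulator of replication stress, by 0.13 (SE 1.03).

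Genes of origin licensing and firing had 22 measured members, a median of 0.07, 8 higher and 5 lower in both numbers and 0 called. Orc1, a subunit of the origin recognition complex, read 62.8 and 170.1 in wild type and 32.6 and 75.5 in knockout, a difference of -0.87 (SE 0.59, limma adjusted p = 0.494 with the block), the lowest of the 158. Gmnn, the protein that binds and blocks Cdt1, had 475.3 and 611.2 against 615.7 and 745.4, a difference of 0.32 (SE 0.35) in which the groups did not overlap. Mcm10 and Cdc45, both needed to start the replicative helicase, were at 0.47 (SE 0.35) and 0.46 (SE 0.37). Cdc6, which loads the helicase together with Cdt1, lay below the filter.

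The PCNA loading and replication fork list had 25 measured genes and a median of 0.04, with 8 higher and 8 lower in both numbers and 0 called. Dscc1, a subunit of an alternative clamp loader, had 118.3 and 119.6 against 63.4 and 74.6, a difference of -0.67 (SE 0.32, limma adjusted p = 0.527 with the block) without overlap of the groups. Atad5, which unloads PCNA, differed by -0.32 (SE 0.59), Rfc3, a subunit of the main clamp loader, by 0.43 (SE 0.57), and Pclaf, a PCNA-binding factor of dividing cells, by 0.50 (SE 0.50).

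Of 20 other E2F and S phase genes on the array 14 were measured, and E2f7, E2f8, Ccne2, Tk1, Tyms and Mybl2 lay below the filter. The median was 0.04, with 2 higher and 2 lower in both numbers and 0 called. Hells, a chromatin remodeller, had 258.5 and 98.2 against 320.9 and 211, a difference of 0.65 (SE 0.55). Its other kept probe set went the other way, at -0.27. E2f1, an activator of S phase genes, had 81.4 and 95.7 against 94.8 and 31.7, a difference of -0.53 (SE 0.51) that was 0.19 within arrays numbered 1 and -1.24 within those numbered 2.

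Of 17 genes of G2 and mitosis 10 were measured, with a median of 0.12, 6 higher and 2 lower in both numbers and 0 called. Mki67, a marker of cycling cells, read 169.6 and 84 in wild type and 212.7 and 308.2 in knockout. Both knockout values lay above both wild-type values, and the difference was 1.0 (SE 0.46, limma adjusted p = 0.570 with the block), with 0.30 and 1.70 within the numbers. Cdc20, an activator of the anaphase-promoting complex, was at 0.62 (SE 0.38) and Top2a, a topoisomerase of dividing cells, at 0.46 (SE 0.40). Kif11 went the other way, at -0.52 (SE 0.51), with -0.25 and -0.79 within the numbers.

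Cdkn1a is a well-known target of p53, and 15 further p53 targets were measured. Their median was 0.16, with 7 higher and 2 lower in both numbers and 0 called. Btg2, an antiproliferative gene, had 4919.3 and 5502.5 against 7216.1 and 7232.1, a difference of 0.47 (SE 0.32) without overlap of the groups (limma adjusted p = 0.595 with the block, 0.0697 with the block and a trended prior). Pmaip1, a death-promoting BCL2 relative, was at 0.60 (SE 0.40), Sesn2, a stress-induced gene, at 0.96 (SE 0.54) with 0.05 and 1.87 within the numbers, and Rrm2b, a ribonucleotide reductase subunit, at -0.35 (SE 0.50). Among other inhibitors of cyclin-dependent kinases and quiescence genes, 13 were measured, with a median of -0.0057, 2 higher and 6 lower in both numbers and 0 called. Cdkn1b (p27) differed by 0.24 (SE 0.55), Cdkn2c by -0.35 (SE 0.36), the quiescence factor Foxo1 by -0.40 (SE 0.34) and E2f4, a repressor in resting cells, by -0.53 (SE 0.36).

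**Figure D5:**
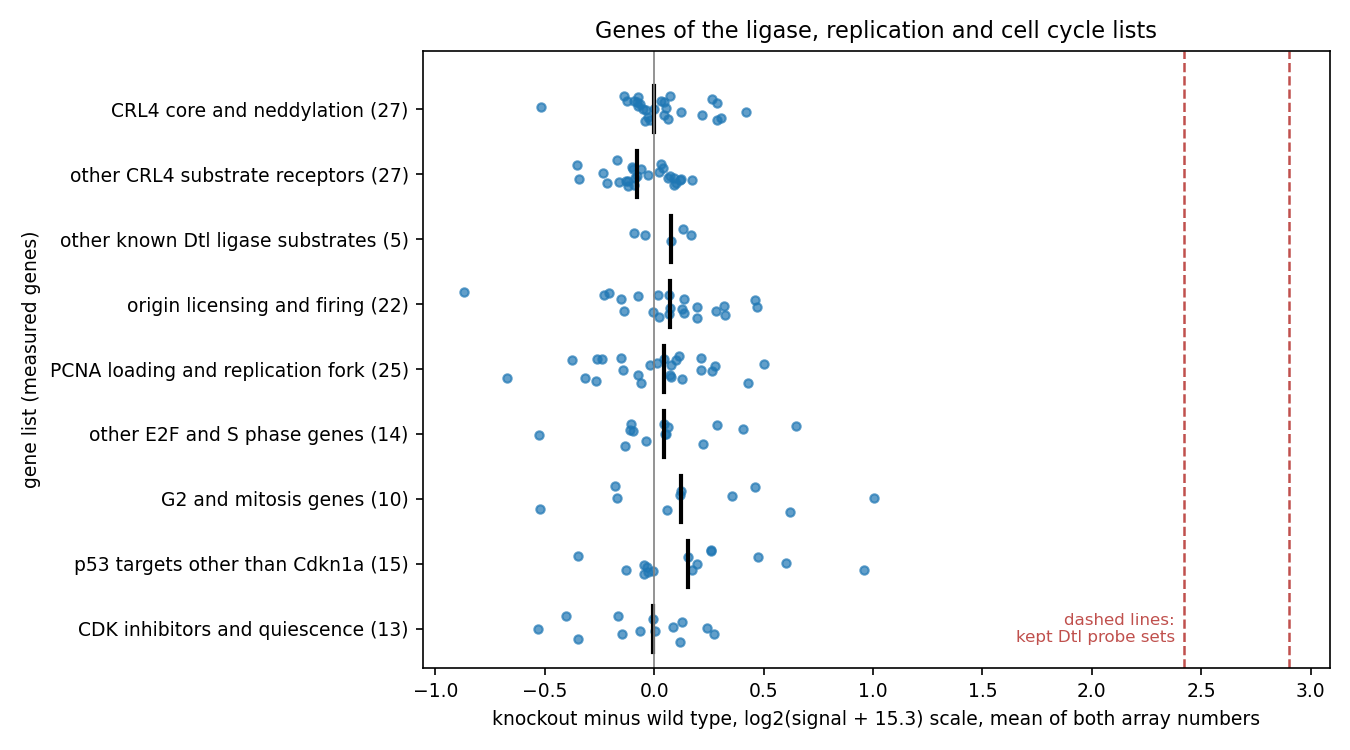
Knockout minus wild-type difference (log2(signal + 15.3) scale, mean of both array numbers) of each measured gene in the 9 ligase, replication and cell cycle lists, 1 point per gene, with a black bar at each list's median; the number of measured genes stands in brackets and dashed lines mark the kept Dtl probe sets. By their brightest kept probe sets all 158 genes lie between -0.87 and 1.0, below the Dtl values of 2.42 and 2.90. Other kept probe sets are not drawn, and among those of Btg1 the highest difference was 2.54, between the Dtl values.

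The probe sets most like 1430228_at over the 4 arrays were sought over the same values that chose Dtl, so they too are high in knockout by construction. Likeness was the root mean square difference between log2 deviations from each probe set's own mean, over 4 arrays and 18842 named kept probe sets. The nearest were Hspa1b, a heat shock protein, at 0.30, Tgm2, a transglutaminase, at 0.38, Jun, a subunit of AP-1, at 0.39, Dusp1, a MAP kinase phosphatase, at 0.47 and Iigp1, an interferon-inducible GTPase, at 0.51. Their knockout minus wild-type differences were 2.35, 3.12, 3.55, 2.27 and 2.28. The second Dtl probe set, 1456652_at, came 21st by this measure, at 0.72. No gene of the 9 lists was among the 5 nearest. Hspa1b has a near-identical copy, Hspa1a, so its signal is uncertain.

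Markers of B cells, plasma cells and myeloid cells, which the sort should leave out, had higher sums on the knockout array within each array number. For B cells and myeloid cells the sum on knockout array 1 still lay below that on wild-type array 2. In limma 0 of these markers were called without or with the block. With the block and a trended prior 2 B cell, 0 plasma cell and 5 myeloid markers were called, against 1.15% of all kept probe sets. Of 9 B cell markers on the array 7 were higher on the knockout array within both numbers, against 25.7% of all 45037 probe sets. Their summed signal was 932 and 3844 on the wild-type arrays and 1415 and 13884 on the knockout arrays. Much of the sum on knockout array 2 came from Cd74, at 5141.1, and H2-Aa, at 4641. Of 14 myeloid markers 12 were higher in both, with sums of 1372 and 4179 against 2180 and 14873. Of 7 plasma cell markers 4 were higher in both, with sums of 6531 and 4055 against 6830 and 7051. The B cell regulators Pax5 and Ebf1 and the myeloid markers Itgam, Cd14, Mpo and Elane lay below the filter, and no marker was at 0. The sums for CD8 T and NK cells were 3793 and 3550 against 4328 and 3864, with 4 of 8 markers on the array higher in both numbers. Within that list Gzma, a granzyme, differed by 1.78 and Nkg7 by 1.22, both without overlap of the groups. Prf1, perforin, the 1 measured marker lower in both numbers, differed by -0.24. Of the 6 measured markers limma called 0 without or with the block. With the block and a trended prior it called 2, Gzma (adjusted p = 0.000154) and Nkg7 (adjusted p = 0.0173), against 1.15% of all kept probe sets. The sums for thymocytes and cycling precursors were 6832 and 2455 against 5999 and 2681, and those for erythroid cells and platelets 292.9 and 934.9 against 217.3 and 650.2. The part of these cells in the Dtl signal was not tested. In bulk RNA, more cells of a type that expresses Dtl and more Dtl RNA per cell cannot be told apart.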

How the data were processed

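Total RNA (5 micrograms) was made into biotinylated cRNA and hybridised, per the labels' protocols. For all 4 arrays the authors deposited linear intensities, 1 per probe set. The submitters' processing notes name MAS5, whose version is not given in the sources used here. Each deposited array has a trimmed mean of 500.003 (2% trimmed at each end), as the values show. No detection calls were used, so signal over background is not known.

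Of 45101 probe sets, 64 controls were left out. Of the rest, 34945 had 1 gene symbol, 932 several and 9160 none. Symbols were updated by Entrez identifier through RefSeq (GRCm38.p6), which also gave positions and promoters. Signals were taken as log2(signal + 15.3), and the 22518 probe sets with a mean above the median of means (6.24) were kept. Tests were run in limma 3.58.1 (R 4.3.3; lmFit, eBayes, two-sided, Benjamini-Hochberg over kept probe sets, threshold 0.05); SEs are limma's moderated ones, and for probe sets below the filter they come from the fit over all 45037. The reported fit has no block. The labels number arrays 1 and 2 without naming a shared animal or day. Because the Gapdh ratio and the added controls differed between the numbers, the number served as a batch in the fits with a block. It also set the within-number differences. Deviations by array number correlated at 0.804 between the groups across probe sets, which are not independent. Fits were tested on simulated data.

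The members, lists and tests were chosen with earlier results of these data known. Named genes are, per list, up to 4 of the largest difference among those with 1 sign in both numbers, any that passed limma or were 2-fold apart in all comparisons, and a fixed set (Kmt5a, Ercc5, Pold4, Rbx1, Ddb2, Mki67, Gmnn, Cdc6 and E2f1 among those analysed here), plus the 5 probe sets nearest to Dtl. Ints7, Cdkn1b and the genes listed as below the filter were named after their values were seen. Alternatives covered the pseudocount, normalization, filter, prior, block, each array left out and the choice of probe set.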

Additional observations from a re-analysis of the deposited data

How the results depend on the processing

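With the pseudocount at the median of all values (66.6) the Dtl difference was 2.08 and that of its second kept probe set 1.52, and with the mean of all 6 Dtl probe sets it was 1.23. A pseudocount of 1 gave 3.34 and raised the number of Dtl probe sets with a mean difference of at least 2-fold from 2 to 5; leaving out wild-type replicate 1 gave 4 and leaving out knockout replicate 1 gave 3. With 1 array left out, which mixes genotype with array number, Dtl ranged from 2.43 to 3.37, Cul4a from -0.64 to 0.75, Cul4b from -1.01 to 0.60, Ddb1 from -0.47 to 0.33, Cdt1 from 0.03 to 0.40, Cdkn1a from -0.55 to 0.36 and Pcna from -0.19 to 0.14. The replicate block left each difference as it was (2.90 for Dtl) and raised the limma calls between genotypes from 0 to 6, or to 260 with a trended prior as well. The calls between array numbers, 7791, were 0 with no filter. The probe sets at least 2-fold apart in all comparisons numbered 46, and 178 with no filter, 19 above the 75th percentile of means and 175 with a 1.5-fold limit. The cause of these shifts was not tested. The low signal of Dtl limits its values: 11 of its 24 signals were under 15.3.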
